A study of Mus musculus with 17 samples.

Results

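Telomerase genes were followed in germ cells sorted from mouse testis. The set held 7 protein-coding genes: Tert, which encodes the catalytic subunit, Dkc1, Nop10, Nhp2 and Gar1, which encode the core proteins bound to the telomerase RNA, Naf1, an assembly factor, and Wrap53, a trafficking factor. They were found by their Entrez numbers among the 24013 rows of the count table, which were matched to mouse symbols. All 7 of 7 were found, and all 7 passed the filter on low counts that left 15451 genes to test.

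RNA sequencing covered 17 libraries in 4 groups, and every library came from Tert-Tomato/+ mice of mixed B6/J X B6/N background. KITpos cells were TERT-High and Kit+ cells of adults (n = 5), described in the labels as differentiated spermatogonia. GFRA1pos cells were GFRa1+, TERT-High and Kit- cells of adults (n = 4), and GFRA1neg cells were GFRa1-, TERT-High and Kit- cells of adults (n = 4), both described as undifferentiated spermatogonia. P6gonocyte cells were TERT+ gonocytes with an OCT4-GFP reporter, taken at postnatal day 6 (n = 4). Cells of every group were gated on the Tert reporter, so none of the groups stands for cells without it, and how the reporter allele is counted in the Tert row was not tested. Whether libraries of a group came from separate animals is not in the labels, so the spread behind each p-value is one between libraries and may be technical.

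Telomerase adds telomere repeats to chromosome ends by copying a template within its RNA subunit, Terc, with the reverse transcriptase TERT. The RNA ends in a box H/ACA domain, and on it, as on all H/ACA RNAs that guide pseudouridylation or rRNA processing, sit dyskerin (Dkc1), NOP10, NHP2 and GAR1. NAF1 occupies the place of GAR1 while the particle is being built and is later exchanged for it, and WRAP53 (also called TCAB1) binds a box of the RNA and brings the enzyme to Cajal bodies and telomeres. In the testis, telomerase activity is known from spermatogonia, whose descendants must pass on telomeres of full length.

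Total counts ran from 5178352 to 12641907 per library, with 5178352 to 8300165 in KITpos, 10918223 to 11567191 in GFRA1pos, 9965437 to 12641907 in GFRA1neg and 6479216 to 8468203 in P6gonocyte. Levels are given as CPM on library sizes scaled by TMM, which sets the bulk of genes equal between libraries. Kit was at 266 to 453 CPM in KITpos, 12.6 to 20.8 CPM in GFRA1pos, 18.4 to 49.3 CPM in GFRA1neg and 166 to 230 CPM in P6gonocyte. Gfra1 was at 0.84 to 7.18 CPM in KITpos, 355 to 425 CPM in GFRA1pos, 18.6 to 25.6 CPM in GFRA1neg and 118 to 157 CPM in P6gonocyte. Pou5f1, the gene of OCT4, whose reporter marked the gonocytes, was at 0 to 1.54 CPM in KITpos, 1.85 to 4.30 CPM in GFRA1pos, 3.11 to 5.45 CPM in GFRA1neg and 23.0, 5.52, 26.3 and 24.0 CPM in P6gonocyte. P6gonocyte replicate 2 thus stood apart from its group on this gene, near the highest GFRA1neg library, and it was also the lowest of its group in Gfra1 and had the highest summed Sertoli markers, at 352 CPM. All 7 of 7 germ cell markers were detected in every group. In sorted pools, fewer cells of a type and less RNA per cell cannot be told apart.

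Tert, which carries the reverse transcriptase, had the lowest level per kb of the 7 transcripts in each group (values below) and did not pass the test in any comparison. The cells were sorted on its reporter, as TERT-High in the adult groups and as TERT+ in the gonocytes. The part of these gates in likeness or difference of Tert between groups was not tested. In KITpos Tert had 8.95, 8.69, 8.03, 7.32 and 4.67 CPM. GFRA1pos libraries had 12.3, 3.80, 6.43 and 6.41 CPM, GFRA1neg libraries 15.4, 9.74, 8.42 and 11.5 CPM, and P6gonocyte libraries 7.63, 7.93, 8.17 and 5.08 CPM. The adult groups overlapped each other, and GFRA1pos spread the most, with replicate 1 above all of its other libraries. All 4 GFRA1neg libraries lay above all 4 P6gonocyte libraries. Group means were 7.53 ± 1.72 CPM in KITpos, 7.24 ± 3.60 CPM in GFRA1pos, 11.3 ± 3.03 CPM in GFRA1neg and 7.20 ± 1.43 CPM in P6gonocyte (SD, n = 5, 4, 4 and 4).

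The Tert differences were tested with edgeR's quasi-likelihood F-test over all genes tested (Benjamini-Hochberg adjustment), as were all differences given here as a log2 fold change ± SE. GFRA1pos minus GFRA1neg was -0.64 ± 0.32 (adjusted p = 0.21), with a 95% interval from -1.30 to 0.02. Without GFRA1pos replicate 1 the same difference was -1.02 (adjusted p = 0.038), the 1 call among 19 alternative fits. Over those fits the difference ran from -1.02 to -0.28, with adjusted p from 0.038 to 0.71. KITpos minus GFRA1neg was -0.58 ± 0.30 (adjusted p = 0.13), and KITpos minus GFRA1pos was 0.06 ± 0.30 (adjusted p = 0.89), with an interval from -0.57 to 0.69. Against the day 6 gonocytes the differences were 0.07 ± 0.31 in KITpos (adjusted p = 0.87), 0.01 ± 0.32 in GFRA1pos (adjusted p = 0.99) and 0.65 ± 0.32 in GFRA1neg (adjusted p = 0.11). Tert rested on 27 to 164 counts per library, and at 27 counts the counting error alone is 19.2%. The interval for KITpos minus GFRA1pos spans from 1.49-fold lower to 1.62-fold higher, and a difference within it was not excluded. The order of the means was GFRA1neg, KITpos, GFRA1pos and P6gonocyte, and no neighbours in it differed beyond their spread.

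The bases before the start of Tert are shown because the cells were sorted on this gene's reporter, and those of Nop10 and Gar1 because these core genes differed in opposite directions between KITpos and both GFRA1 groups (values below). Each is the 250 bases upstream of the start in the RefSeq promoter table of GRCm38.p6, read 5′ to 3′ on the gene's strand. Tert lies at chr13:73626661-73626910 (+ strand), Nop10 at chr2:112261676-112261925 (+ strand) and Gar1 at chr3:129831397-129831646 (- strand). Capitals mark matches to a GC box (GGGCGG, here on the opposite strand) in Tert and to an ETS-type motif (CCGGAAGT, here on the opposite strand) in Gar1.
Tert upstream: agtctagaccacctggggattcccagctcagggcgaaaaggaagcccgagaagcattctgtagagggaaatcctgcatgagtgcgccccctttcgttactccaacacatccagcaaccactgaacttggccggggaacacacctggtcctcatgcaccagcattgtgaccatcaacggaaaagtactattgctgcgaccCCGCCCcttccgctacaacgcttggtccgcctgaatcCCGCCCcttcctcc
Nop10 upstream: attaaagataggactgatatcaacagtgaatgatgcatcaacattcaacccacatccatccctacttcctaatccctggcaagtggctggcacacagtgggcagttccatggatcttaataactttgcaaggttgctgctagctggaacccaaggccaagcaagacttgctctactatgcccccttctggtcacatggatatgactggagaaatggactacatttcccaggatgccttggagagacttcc
Gar1 upstream: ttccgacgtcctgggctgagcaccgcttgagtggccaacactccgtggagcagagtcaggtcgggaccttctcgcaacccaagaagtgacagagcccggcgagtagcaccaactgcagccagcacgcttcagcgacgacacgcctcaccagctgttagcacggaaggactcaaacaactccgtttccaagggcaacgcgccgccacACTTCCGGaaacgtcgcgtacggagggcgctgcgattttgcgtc

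Both strands of each window were searched for the GC box, the ETS-type motif and the E-box CACGTG, which MYC and its partners are known to bind. The table held a window for 6 of the 7 members, with 2 windows for Wrap53 and none for Naf1. Tert held GC boxes 51 and 14 bases before its start. Nhp2 held 3 GC boxes and an ETS-type match 23 bases before its start, and Gar1 held an ETS-type match 44 bases before its start. A single Wrap53 window held the E-box, while the Dkc1 and Nop10 windows held none of these letters. Among all 32851 windows in the table, 32.7% held the GC box, 2.88% the ETS-type motif and 6.02% the E-box. The ETS-type motif was chosen after the sequences had been seen, and a match is a description of letters only.

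The core gene with the widest range was Dkc1, which encodes dyskerin, the pseudouridine synthase of H/ACA particles and the protein altered in X-linked dyskeratosis congenita. KITpos libraries had 47.4, 50.0, 49.7, 46.5 and 68.9 CPM. GFRA1pos libraries had 33.3, 24.6, 34.1 and 20.2 CPM, and GFRA1neg libraries had 36.9, 33.8, 64.2 and 40.6 CPM. P6gonocyte libraries had 116, 122, 115 and 135 CPM. Every gonocyte library stood above every adult library, and every KITpos library stood above every GFRA1pos library. GFRA1neg overlapped both other adult groups, with replicate 3 well above its other libraries.

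Means of Dkc1 were 52.5 ± 9.26 CPM in KITpos, 28.0 ± 6.76 CPM in GFRA1pos, 43.9 ± 13.8 CPM in GFRA1neg and 122 ± 9.33 CPM in P6gonocyte (SD). It was 4.34-fold lower in GFRA1pos than in P6gonocyte (log2 fold change -2.12 ± 0.21, adjusted p = 2.1e-06). In GFRA1neg it was 2.78-fold lower than in P6gonocyte (adjusted p = 2.3e-05), and in KITpos 2.32-fold lower (adjusted p = 4.9e-05). Among adult cells, KITpos was higher than GFRA1pos by 0.90 ± 0.19 (adjusted p = 0.00072). GFRA1pos was lower than GFRA1neg, with -0.64 ± 0.20 (adjusted p = 0.037), but without GFRA1neg replicate 3 the difference was -0.40 (adjusted p = 0.18), and it also missed the threshold without GFRA1neg replicate 4 or without GFRA1pos replicate 2 or 4 (adjusted p = 0.057, 0.11 and 0.15). KITpos minus GFRA1neg was 0.26 ± 0.19 (adjusted p = 0.28), and without GFRA1neg replicate 3 it was 0.50 (adjusted p = 0.030). The order of the means was P6gonocyte, KITpos, GFRA1neg and GFRA1pos, and only KITpos and GFRA1neg, as neighbours, did not pass the test.

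Nop10, a small protein that holds dyskerin to the RNA, had its highest level in KITpos. Its KITpos libraries had 118, 85.1, 63.6, 90.6 and 81.3 CPM. GFRA1pos libraries had 34.8, 41.0, 33.1 and 37.0 CPM, GFRA1neg libraries 31.0, 29.2, 34.2 and 39.5 CPM, and P6gonocyte libraries 46.0, 59.3, 42.9 and 47.9 CPM. All 5 KITpos libraries stood above all 12 others, while the GFRA1 groups overlapped each other and lay below the gonocytes.

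Nop10 was 2.40-fold higher in KITpos than in GFRA1pos (log2 fold change 1.26 ± 0.16, adjusted p = 3e-06). It was also 2.62-fold higher in KITpos than in GFRA1neg (1.39 ± 0.16, adjusted p = 1.2e-06) and 1.79-fold higher than in P6gonocyte (0.84 ± 0.16, adjusted p = 3e-04). GFRA1neg was lower than P6gonocyte, with a log2 fold change of -0.55 ± 0.17 (adjusted p = 0.011). GFRA1pos minus P6gonocyte was -0.43 ± 0.17 (adjusted p = 0.047), close to the threshold, and 11 of 19 alternative fits put it past 0.05, with adjusted p from 0.011 to 0.15. Among these were the fits without GFRA1pos replicate 1, 3 or 4 and without P6gonocyte replicate 1, 2 or 4. GFRA1pos minus GFRA1neg was 0.12 ± 0.17 (adjusted p = 0.70), and these neighbours in the order did not differ beyond their spread.

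For Nhp2, the core protein that contacts NOP10 and the RNA, a single group stood low. KITpos libraries had 83.2, 73.7, 55.8, 91.8 and 66.6 CPM, and GFRA1pos libraries had 38.4, 50.8, 39.6 and 50.8 CPM. GFRA1neg libraries had 63.0, 51.5, 69.6 and 78.5 CPM, and P6gonocyte libraries had 79.5, 100.3, 67.3 and 62.7 CPM. The 4 GFRA1pos libraries lay below all 13 others, which overlapped between their groups.

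GFRA1pos was lower in Nhp2 than P6gonocyte (-0.79 ± 0.18, adjusted p = 0.0023) and, with -0.55 ± 0.18, lower than GFRA1neg at an adjusted p of 0.049. That second call was lost in 9 of 19 alternative fits, among them 7 of the 8 fits that left out a library of either group, with values from -0.81 to -0.45. KITpos was higher than GFRA1pos by 0.72 ± 0.17 (adjusted p = 0.0019). KITpos minus GFRA1neg was 0.18 ± 0.17 (adjusted p = 0.43), KITpos minus P6gonocyte was -0.06 ± 0.17 (adjusted p = 0.79), and GFRA1neg minus P6gonocyte was -0.24 ± 0.18 (adjusted p = 0.30). The 3 higher groups, in the order P6gonocyte, KITpos and GFRA1neg, therefore did not differ beyond their spread.

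Gar1, the core protein that joins mature particles last and takes the place of NAF1, went the other way from Nop10. KITpos libraries had 36.6, 35.1, 32.8, 32.5 and 37.4 CPM. GFRA1pos libraries had 68.0, 72.1, 93.8 and 71.9 CPM, GFRA1neg libraries 66.1, 49.1, 62.1 and 60.3 CPM, and P6gonocyte libraries 54.5, 65.0, 68.1 and 65.7 CPM. The 5 KITpos libraries were tightly grouped and lay below all 12 others, and all GFRA1pos libraries lay above all GFRA1neg libraries.

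Means of Gar1 were 34.9 ± 2.20 CPM in KITpos, 76.5 ± 11.7 CPM in GFRA1pos, 59.4 ± 7.28 CPM in GFRA1neg and 63.3 ± 6.04 CPM in P6gonocyte (SD). It was 2.19-fold lower in KITpos than in GFRA1pos (log2 fold change -1.13 ± 0.12, adjusted p = 5.4e-07), 1.70-fold lower than in GFRA1neg (adjusted p = 5.2e-05) and 1.82-fold lower than in P6gonocyte (adjusted p = 2.8e-05). GFRA1pos minus GFRA1neg was 0.36 ± 0.13 and did not pass (adjusted p = 0.070), although DESeq2 gave an adjusted p of 0.029 and RLE scaling 0.041. Without GFRA1pos replicate 4 it passed as well (0.44, adjusted p = 0.044). Neither GFRA1 group passed against the gonocytes, with 0.27 ± 0.13 in GFRA1pos (adjusted p = 0.11) and -0.09 ± 0.13 in GFRA1neg (adjusted p = 0.59), but GFRA1pos did with limma voom and sample quality weights (0.29, adjusted p = 0.031). In the order GFRA1pos, P6gonocyte, GFRA1neg and KITpos, the last step was the one between neighbours that passed.

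Naf1, the assembly factor that GAR1 replaces, was higher in KITpos than in each other group, as Gar1 was lower. KITpos libraries had 13.8, 16.0, 16.7, 20.8 and 10.6 CPM. GFRA1pos libraries had 11.4, 8.48, 8.74 and 9.53 CPM, GFRA1neg libraries 9.77, 10.2, 9.46 and 11.1 CPM, and P6gonocyte libraries 12.9, 8.89, 10.0 and 10.2 CPM. KITpos replicate 5 lay within the range of every other group, and the other 4 KITpos libraries lay above all 12 libraries of those groups.

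The Naf1 difference was 0.70 ± 0.20 for KITpos minus GFRA1pos (adjusted p = 0.0077), 0.62 ± 0.20 for KITpos minus GFRA1neg (adjusted p = 0.019) and 0.57 ± 0.20 for KITpos minus P6gonocyte (adjusted p = 0.027). These calls were less firm than those of Gar1. Over the alternative fits the adjusted p ran from 0.0017 to 0.089 against GFRA1pos, from 0.0043 to 0.064 against GFRA1neg and from 0.0067 to 0.079 against P6gonocyte. Leaving out KITpos replicate 4 ended the calls against GFRA1neg (0.49, adjusted p = 0.054) and against P6gonocyte (0.45, adjusted p = 0.076). Leaving out GFRA1neg replicate 3 ended the first of these as well (0.58, adjusted p = 0.051), and leaving out P6gonocyte replicate 2, 3 or 4 ended the second (adjusted p = 0.079, 0.071 and 0.067). The other 3 groups did not differ among themselves beyond their spread (adjusted p from 0.65 to 0.88).

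Wrap53, the trafficking factor, did not pass in any comparison. KITpos libraries had 17.5, 22.0, 11.3, 10.1 and 13.8 CPM, GFRA1pos libraries 12.8, 12.2, 14.7 and 14.3 CPM, GFRA1neg libraries 11.2, 10.9, 15.6 and 16.1 CPM, and P6gonocyte libraries 15.3, 19.7, 14.3 and 9.33 CPM. All groups overlapped (adjusted p from 0.64 to 0.99). The widest 95% interval among its comparisons within adult cells, for GFRA1pos minus GFRA1neg, ran from -0.53 to 0.54, so a change of up to 1.44-fold either way was within it. The interval for KITpos minus GFRA1neg, from -0.36 to 0.67, reached furthest from 0, up to 1.59-fold higher.

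**Figure D1:**
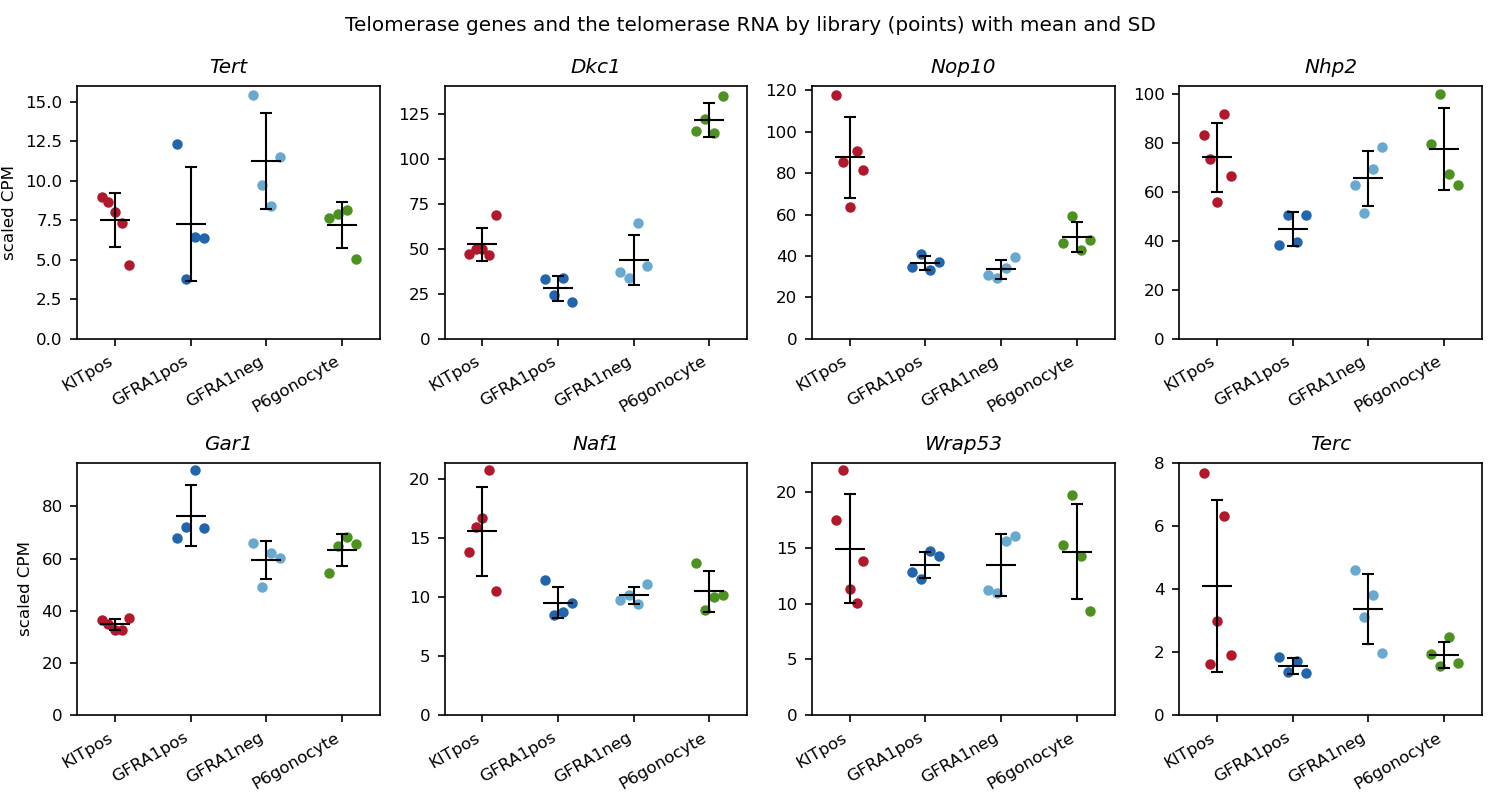
Scaled CPM of the 7 telomerase genes and of Terc (y axes, from 0) in each library (points) of KITpos, GFRA1pos, GFRA1neg and P6gonocyte, with the mean and SD as bars. Dkc1 is highest in all 4 P6gonocyte libraries, Nop10 is highest and Gar1 lowest in all 5 KITpos libraries, and Wrap53 overlaps in all groups.

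Over the 4 groups together, 5 of the 7 members passed a test of any difference, where 73.5% of all genes tested did, so the share was close to that background. They were Dkc1 (adjusted p = 2.4e-07), Nop10 (8.7e-07), Gar1 (2.7e-06), Nhp2 (0.0033) and Naf1 (0.011). Tert (0.16) and Wrap53 (0.89) did not pass.

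By comparison, KITpos minus GFRA1pos held the most calls. There 4 members were higher and 1 was lower, beside 24.9% of all genes higher and 23.7% lower (48.6% in all), and 4 of 7 members had no overlap between the groups' libraries, beside 37.2% of all genes. In KITpos minus GFRA1neg, 2 members were higher and 1 was lower, beside 22.1% of all genes higher and 23% lower (45.1% in all), and 2 of 7 did not overlap, beside 33.8%. In GFRA1pos minus GFRA1neg, none was higher and 2 were lower, beside 7.3% of all genes higher and 6.84% lower (14.1% in all), and 2 of 7 did not overlap, beside 23.3%. Both calls in that comparison, Dkc1 and Nhp2, depended on single libraries, as given above.

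Against the day 6 gonocytes, 2 members were higher and 2 lower in KITpos, beside 27.3% of all genes higher and 21.8% lower (49.1% in all). In GFRA1pos none was higher and 3 were lower, beside 21.9% of all genes higher and 17.3% lower (39.2% in all). In GFRA1neg none was higher and 2 were lower, beside 24.9% of all genes higher and 18.8% lower (43.6% in all). The libraries did not overlap for 3 of 7 members in each of these 3 comparisons, beside 35.9% of all genes for KITpos, 41.5% for GFRA1pos and 44.8% for GFRA1neg. Shares of this size are near the background, and the median log2 fold change of the members, 0.03 in KITpos, -0.13 in GFRA1pos and -0.13 in GFRA1neg, stood beside 0.09, 0.05 and 0.09 over all genes. Without P6gonocyte replicate 2, the library low in Pou5f1, 3 members were called in KITpos, 2 in GFRA1pos and 2 in GFRA1neg. Dkc1 then stood at -1.22 in KITpos, -2.12 in GFRA1pos and -1.48 in GFRA1neg, Gar1 at -0.85 and Nop10 at 0.94 in KITpos, Nhp2 at -0.64 in GFRA1pos and Nop10 at -0.45 in GFRA1neg (adjusted p from 9.5e-06 to 0.045). Naf1 in KITpos (0.49, adjusted p = 0.079) and Nop10 in GFRA1pos (-0.32, adjusted p = 0.15) were the calls lost. The comparisons against gonocytes share the same 4 gonocyte libraries, and those against a common adult group likewise share libraries.

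**Figure D2:**
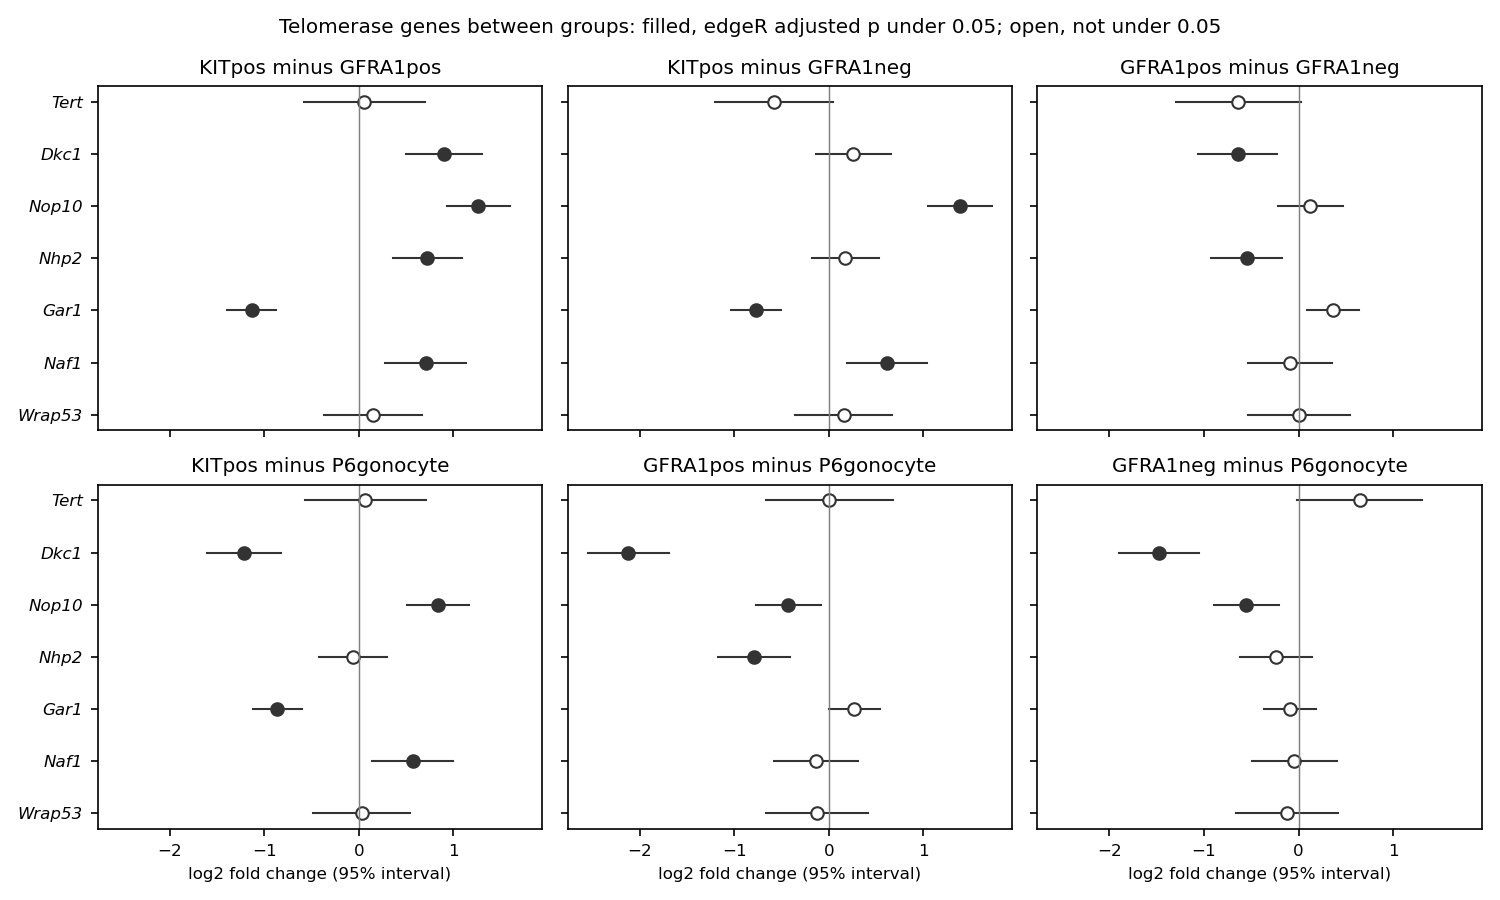
Log2 fold change (x axes) of the 7 telomerase genes in 6 comparisons between groups, the first-named group minus the second, with 95% intervals; filled points have an edgeR adjusted p under 0.05. Gar1 lies left of 0 and Nop10 right of 0 in all 3 comparisons of KITpos, and Dkc1 lies left of 0 in all 3 comparisons with P6gonocyte.

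Because the core proteins sit together on each H/ACA RNA, their counts were also set against each other within each library, which no scaling between libraries can change. These ratios are a description and were not tested. Gar1 over Naf1 was 2.65, 2.20, 1.96, 1.57 and 3.54 in the KITpos libraries. The ratio was 5.95, 8.51, 10.7 and 7.54 in GFRA1pos, 6.77, 4.80, 6.56 and 5.42 in GFRA1neg and 4.23, 7.31, 6.79 and 6.47 in P6gonocyte. All KITpos ratios lay below all 12 others. Gar1 over Nop10 was 0.312 to 0.515 in KITpos, 1.76 to 2.84 in GFRA1pos, 1.53 to 2.13 in GFRA1neg and 1.10 to 1.59 in P6gonocyte. The KITpos ratios lay below all 12 others, which follows from the levels of the 2 genes given above and adds nothing to them. Dkc1 over Nop10 overlapped between KITpos (0.403 to 0.847) and GFRA1pos (0.547 to 1.03), while Nhp2 over Nop10 was lowest in KITpos (0.707 to 1.01). Dkc1 over Gar1 was 1.29 to 1.84 in KITpos, 0.282 to 0.490 in GFRA1pos, 0.558 to 1.03 in GFRA1neg and 1.68 to 2.12 in P6gonocyte, and the GFRA1pos ratios lay below those of all other groups.

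Levels of different genes are set against each other per kb of annotated exon (GENCODE M21, GRCm38), since the annotation used for counting is not given in the sources used here. On that scale, Tert was at 1.31 CPM per kb in KITpos, 1.26 in GFRA1pos, 1.97 in GFRA1neg and 1.26 in P6gonocyte. Naf1 followed at 3.09 to 5.03 CPM per kb and Wrap53 at 6.52 to 7.24 CPM per kb over the group means. Nop10 led in KITpos at 79.0 CPM per kb, Gar1 led in GFRA1pos at 44.6, and Nhp2 led in GFRA1neg at 57.3 and in P6gonocyte at 67.6. By group mean, the leading core transcript thus changed with the group, while Tert was the lowest of the 7 in each. The lead of Gar1 over Nhp2 in GFRA1pos did not hold in every library.

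As shares of the 4 core transcripts per kb, Nop10 made up 44.4% ± 3.35 in KITpos, 26.7% ± 2.30 in GFRA1pos, 22.8% ± 1.56 in GFRA1neg and 24.7% ± 1.05 in P6gonocyte (SD, n = 5, 4, 4 and 4). Gar1 made up 11.7% ± 1.74 in KITpos, 36.1% ± 4.71 in GFRA1pos, 26.2% ± 2.52 in GFRA1neg and 20.9% ± 2.95 in P6gonocyte. The share of Dkc1 was 7.39% ± 1.88 in KITpos, 5.56% ± 1.53 in GFRA1pos, 7.98% ± 1.97 in GFRA1neg and 16.7% ± 2.10 in P6gonocyte. Nhp2 made up 36.5% ± 3.10 in KITpos, 31.7% ± 3.93 in GFRA1pos, 43.0% ± 1.97 in GFRA1neg and 37.6% ± 4.44 in P6gonocyte. Within GFRA1pos, the library shares of Gar1 (32.5% to 43.0%) and Nhp2 (27.1% to 35.6%) overlapped.

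**Figure D3:**
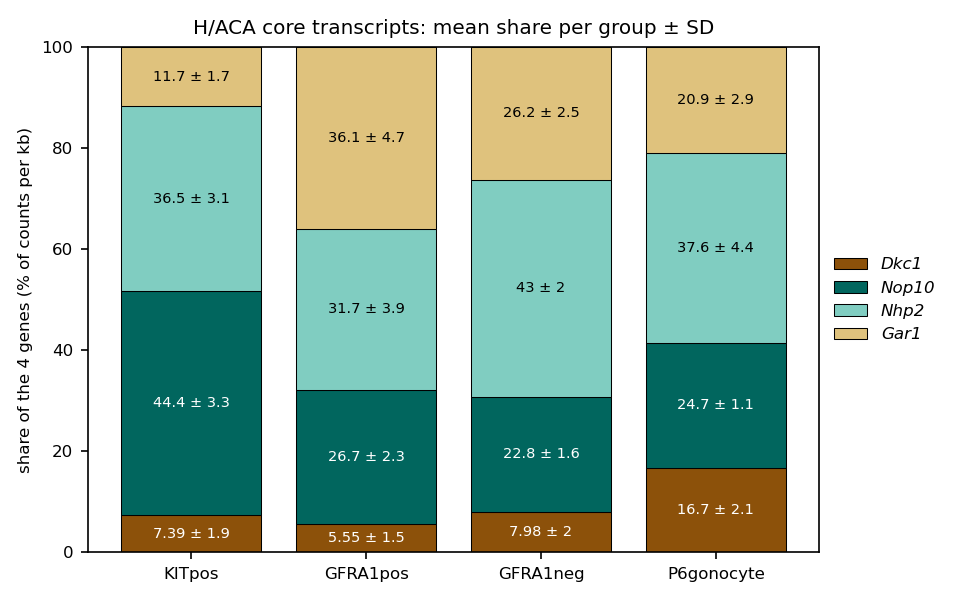
Share (%) of counts per kb held by Dkc1, Nop10, Nhp2 and Gar1 among the 4 genes (y axis, 0 to 100), as the mean of the libraries of KITpos, GFRA1pos, GFRA1neg and P6gonocyte with the SD printed in each block. Nop10 takes 44.4% in KITpos and Gar1 36.1% in GFRA1pos, and Dkc1 takes 16.7% in P6gonocyte.

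The telomerase RNA itself, Terc, was counted at 11 to 55 reads per library, and is shown because all 7 members act on it. The stretch below is bases 21 to 140 of the 423-base GENCODE M21 transcript, on chromosome 3 (- strand), and the last 60 bases of the same transcript. Capitals mark the template letters CTAACCCT at bases 29 to 36, whose complement runs through the telomere repeat, and, in the second, the ACA box that lies 3 bases before the end and is bound by the dyskerin core.
Terc 5-prime part: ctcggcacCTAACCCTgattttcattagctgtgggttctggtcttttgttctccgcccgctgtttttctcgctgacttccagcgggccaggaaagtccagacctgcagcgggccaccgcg
Terc 3-prime end: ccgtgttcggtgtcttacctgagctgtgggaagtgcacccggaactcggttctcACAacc

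Terc had 7.69, 1.62, 2.98, 6.30 and 1.90 CPM in KITpos, 1.86, 1.36, 1.71 and 1.35 CPM in GFRA1pos, 4.60, 3.11, 3.81 and 1.97 CPM in GFRA1neg and 1.94, 1.56, 2.48 and 1.65 CPM in P6gonocyte. KITpos spread the most and overlapped every other group, and all GFRA1neg libraries lay above all GFRA1pos libraries. The difference KITpos minus GFRA1pos passed at 1.37 ± 0.45 (adjusted p = 0.017), but it was 1.01 without KITpos replicate 1 (adjusted p = 0.069) and 6 of 20 alternative fits did not call it. GFRA1pos minus GFRA1neg was -1.10 ± 0.47 (adjusted p = 0.13), and KITpos minus P6gonocyte was 1.09 ± 0.45 (adjusted p = 0.053).

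Transcripts listed as markers of other cell types were present in some libraries and moved with the groups. Whether they came from other cells or from the sorted cells was not tested. The 6 spermatid markers summed to 266 to 1028 CPM in KITpos, 55.4 to 1483 CPM in GFRA1pos, 281 to 1318 CPM in GFRA1neg and 1.65 to 3.33 CPM in P6gonocyte, where Prm1 was at 0 in all libraries. The 7 Leydig markers summed to 21.8 to 98.7 CPM in KITpos, 13.9 to 25.3 CPM in GFRA1pos, 9.76 to 26.4 CPM in GFRA1neg and 14.3 to 21.5 CPM in P6gonocyte. Cyp11a1 and Lhcgr were at 0 in the gonocytes, but Hsd17b3 had its highest group mean there, at 5.26 CPM. Star was the largest single part of the Leydig sums by group mean, with 16.0, 15.1, 11.6 and 10.0 CPM in turn. The Sertoli markers, 7 of 8 of them in the table, summed to 75.9 to 121 CPM in KITpos, 159 to 182 CPM in GFRA1pos, 81.5 to 109 CPM in GFRA1neg and 184 to 352 CPM in P6gonocyte. A single marker, Ctsl, made up most of these sums, with means of 79.9, 159, 78.4 and 175 CPM in turn. The Sertoli sum is therefore largely a measure of that gene. Clu, Sox9, Amh and Cldn11 also had their highest means in P6gonocyte, while Wt1 and Gata1 did not. Clu averaged 38.6 CPM there, against 7.63 CPM in KITpos, 4.68 CPM in GFRA1pos and 2.21 CPM in GFRA1neg. The 6 spermatocyte markers summed to 425 to 726 CPM in KITpos, 226 to 922 CPM in GFRA1pos, 593 to 1823 CPM in GFRA1neg and 126 to 247 CPM in P6gonocyte. Sycp1 and Sycp3 made up most of the P6gonocyte sum, with means of 93.4 and 76.3 CPM, while Ldhc was at 3.84 CPM there. Marker lists of peritubular myoid cells, leukocytes, endothelium and red blood cells summed to at most 51.5 CPM in any library. The part of Leydig, Sertoli and spermatocyte transcripts in the member differences was not tested.

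The 4 libraries with the highest spermatid sums were GFRA1pos replicates 2 and 4, GFRA1neg replicate 2 and KITpos replicate 1. Without them, Gar1 was still lower in KITpos than in GFRA1pos (-1.26), Nop10 was still higher there (1.20) and Dkc1 was still lower in GFRA1pos than in P6gonocyte (-1.88), each past the threshold. Nhp2 in GFRA1pos minus GFRA1neg was -0.81 (adjusted p = 0.026). Dkc1 in that comparison was -0.44 (adjusted p = 0.27), and Naf1 in KITpos was 0.63 against GFRA1pos (adjusted p = 0.089) and 0.54 against P6gonocyte (adjusted p = 0.066), so these 3 calls were lost. The Terc call between KITpos and GFRA1pos was lost as well (0.79, adjusted p = 0.29).

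Counts of 3 members could hold reads of a neighbour, since use of strand in counting is not given in the sources used here. In RefSeq, Dkc1 overlaps Mpp1 (70 to 259 counts) and a snoRNA gene, Nhp2 overlaps Rmnd5b (178 to 437 counts) and Wrap53 overlaps a pseudogene. Dkc1 itself had 240 to 1108 counts and Nhp2 385 to 835. Tert, Nop10, Gar1 and Naf1 overlapped no other gene. Wrap53 is known to share its start region with Trp53 on the opposite strand, the gene of the tumour suppressor p53. Trp53 was lower in KITpos than in P6gonocyte (-0.50 ± 0.16, adjusted p = 0.017) and did not pass in the other 5 comparisons, at 75.8 to 178 CPM over all libraries. Without P6gonocyte replicate 2 that difference was -0.30 (adjusted p = 0.10).

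Other genes of telomerase biology were followed in lists, each described by its count of called genes beside the shares of all genes already given. The assembly list held 9 chaperones and Cajal body factors that build H/ACA particles. In KITpos, 2 of 9 were higher and 5 lower than in GFRA1pos (median log2 fold change -0.43), and 1 was higher and 6 lower than in P6gonocyte (median -0.61). Of all genes, 24.9% were higher and 23.7% lower in the first comparison, and 27.3% and 21.8% in the second. Without GFRA1pos replicate 1, 4 of 9 passed against GFRA1pos. Ruvbl2, an ATPase of the R2TP complex that acts in H/ACA assembly, averaged 58.6 CPM in KITpos, 138 CPM in GFRA1pos, 136 CPM in GFRA1neg and 133 CPM in P6gonocyte. Its differences were -1.23 ± 0.18, -1.22 ± 0.18 and -1.18 ± 0.18 for KITpos against those groups in turn (adjusted p = 1.3e-05, 1.6e-05 and 3.8e-05). Its partner Ruvbl1 was also lower in KITpos, at 93.8 CPM against 172 CPM in P6gonocyte (adjusted p = 1.2e-05), and so was Rpap3, another R2TP subunit, at 11.9 CPM against 30.3 CPM (adjusted p = 1.7e-05). Pih1d1, the remaining R2TP subunit in the list, was chosen after its values were seen and went the other way, at 31.6 CPM in KITpos, 18.5 CPM in GFRA1pos, 18 CPM in GFRA1neg and 20.03 CPM in P6gonocyte, and it passed in all 3 comparisons of KITpos (adjusted p = 0.0086, 0.0069 and 0.023). The last of these calls was lost without KITpos replicate 1 or 2 or P6gonocyte replicate 1, 3 or 4 (adjusted p up to 0.091), and the call against GFRA1pos without the 4 libraries high in spermatid transcripts (adjusted p = 0.075).

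Factors that process or degrade telomerase RNA formed a list of 10. In KITpos 5 were higher and 2 lower than in GFRA1pos, beside 24.9% and 23.7% of all genes. Lower than in P6gonocyte were 5 of 10 in GFRA1pos and 5 of 10 in GFRA1neg, with none higher, beside 17.3% and 18.8% of all genes lower. These counts rested on single libraries: 3 of 10 passed for GFRA1pos without its replicate 2 or without P6gonocyte replicate 1, 2 or 4, and 3 of 10 for GFRA1neg without its replicate 1 or 2 or without P6gonocyte replicate 4. Without the 4 libraries high in spermatid transcripts, 4 of 10 passed between KITpos and GFRA1pos. Parn, the deadenylase that removes short A tails from telomerase RNA, averaged 98.7 CPM in KITpos, 54.6 CPM in GFRA1pos, 55.6 CPM in GFRA1neg and 72.2 CPM in P6gonocyte. It passed in KITpos against all 3 (0.85 ± 0.13, 0.83 ± 0.13 and 0.45 ± 0.13, with adjusted p = 3.4e-05, 5.1e-05 and 0.0089). Dis3, an exosome nuclease, was highest in P6gonocyte, with 183 CPM in KITpos, 124 CPM in GFRA1pos, 124 CPM in GFRA1neg and 237 CPM in P6gonocyte. Tgs1, the methyltransferase that makes the trimethylguanosine cap, was likewise lower in all 3 adult groups than in P6gonocyte (adjusted p = 0.0034, 0.00022 and 0.0013). None of the 10 passed between GFRA1pos and GFRA1neg, where edgeR called 14.1% of all genes.

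The CCT chaperonin, which folds WRAP53, was listed with 8 subunits. None was higher in any adult group than in P6gonocyte, and 6 were lower in KITpos, 7 in GFRA1pos and 5 in GFRA1neg, with median log2 fold changes of -0.59, -0.71 and -0.49. Of all genes, 21.8%, 17.3% and 18.8% were lower in these groups in turn. Cct6a averaged 430.5 CPM in KITpos, 405 CPM in GFRA1pos, 423 CPM in GFRA1neg and 861 CPM in P6gonocyte. Cct4 was 1 of the 2 subunits, with Cct3, that were higher in KITpos than in GFRA1pos. It had 338 CPM in KITpos, 150.2 CPM in GFRA1pos, 196 CPM in GFRA1neg and 288 CPM in P6gonocyte, a log2 fold change of 1.17 ± 0.12 for KITpos minus GFRA1pos (adjusted p = 1.6e-07). All 4 core proteins of box C/D particles, which guide RNA methylation and share assembly factors with the H/ACA class, were lower in GFRA1pos and in GFRA1neg than in P6gonocyte, with a median of -0.71 in both. Of these calls, Snu13 in GFRA1pos (-0.34, adjusted p = 0.048) was lost in 12 of 19 alternative fits, among them those without any 1 of the 4 GFRA1pos libraries or without P6gonocyte replicate 1, 2 or 4 (adjusted p up to 0.18). Fbl, the methyltransferase fibrillarin, in GFRA1neg (-0.41, adjusted p = 0.032) was lost without GFRA1neg replicate 1 or 2, without P6gonocyte replicate 2 and without the 4 libraries high in spermatid transcripts (adjusted p up to 0.13). Their member Snu13 was highest in KITpos, with 242 CPM against 127 CPM in GFRA1pos, 102 CPM in GFRA1neg and 161 CPM in P6gonocyte, whereas Nop58 was highest in the gonocytes, with 104 CPM in KITpos, 64.1 CPM in GFRA1pos, 71.5 CPM in GFRA1neg and 177 CPM in P6gonocyte.

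Among 14 partners and regulators of the TERT protein, 2 were higher and 7 lower in KITpos than in GFRA1neg, and 4 were higher and 4 lower in KITpos than in GFRA1pos. Of all genes, 22.1% were higher and 23% lower in the first comparison, and 24.9% and 23.7% in the second. Pif1, a helicase that removes telomerase from DNA ends, averaged 1.40 CPM in KITpos, 7.54 CPM in GFRA1pos, 4.26 CPM in GFRA1neg and 6.29 CPM in P6gonocyte. It was lower in KITpos, with log2 fold changes of -2.41 ± 0.35 against GFRA1pos, -1.59 ± 0.35 against GFRA1neg and -2.15 ± 0.35 against P6gonocyte (adjusted p = 1.5e-05, 0.0011 and 9.2e-05). Gnl3l, a nucleolar GTPase known to bind TERT, was likewise at 5.98 CPM in KITpos, 24.8 CPM in GFRA1pos, 22.2 CPM in GFRA1neg and 21.6 CPM in P6gonocyte. Hsp90aa1, the chaperone that keeps TERT active, followed the order of Dkc1 instead, with 1163 CPM in KITpos, 655 CPM in GFRA1pos, 758 CPM in GFRA1neg and 1937 CPM in P6gonocyte.

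The transcription factors listed as known at the TERT promoter, 13 in all, were mostly lower in KITpos among the called genes. In KITpos, 3 were higher and 7 lower than in GFRA1pos, 2 higher and 5 lower than in GFRA1neg, and 3 higher and 6 lower than in P6gonocyte. The shares of all genes higher and lower were 24.9% and 23.7%, 22.1% and 23%, and 27.3% and 21.8% in turn. Max, the partner of MYC at E-boxes, averaged 98.5 CPM in KITpos, 306 CPM in GFRA1pos, 293 CPM in GFRA1neg and 132 CPM in P6gonocyte. Mnt, a repressor that pairs with MAX, averaged 11.2 CPM in KITpos, 52.6 CPM in GFRA1pos, 59.2 CPM in GFRA1neg and 26.0 CPM in P6gonocyte. Usf1, another E-box factor, was at 7.77 CPM in KITpos, 24.8 CPM in GFRA1pos, 31.2 CPM in GFRA1neg and 17.7 CPM in P6gonocyte. All 3 passed in each comparison of KITpos (adjusted p from 1.2e-08 to 0.012), but Max did not against P6gonocyte without P6gonocyte replicate 2 (-0.32, adjusted p = 0.052).

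Mycn had 19.3 CPM in KITpos, 30.4 CPM in GFRA1pos, 63.3 CPM in GFRA1neg and 46.6 CPM in P6gonocyte. It was lower in GFRA1pos than in GFRA1neg, with -1.06 ± 0.18 (adjusted p = 0.00044). Tert had -0.64 there without passing, and a link between the 2 genes was not tested. Of the 13 factors, 2 were higher and 2 lower in this comparison, beside 7.3% and 6.84% of all genes. Myc and E2f1, chosen after their values were seen, went the other way from Mycn. Myc had 2.78 CPM in GFRA1pos against 0.376 CPM in GFRA1neg (adjusted p = 0.0083, and 0.079 without the 4 libraries high in spermatid transcripts). E2f1 had 62.6 CPM against 35.4 CPM and was called in all 19 alternative fits (adjusted p up to 0.011).

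**Figure D4:**
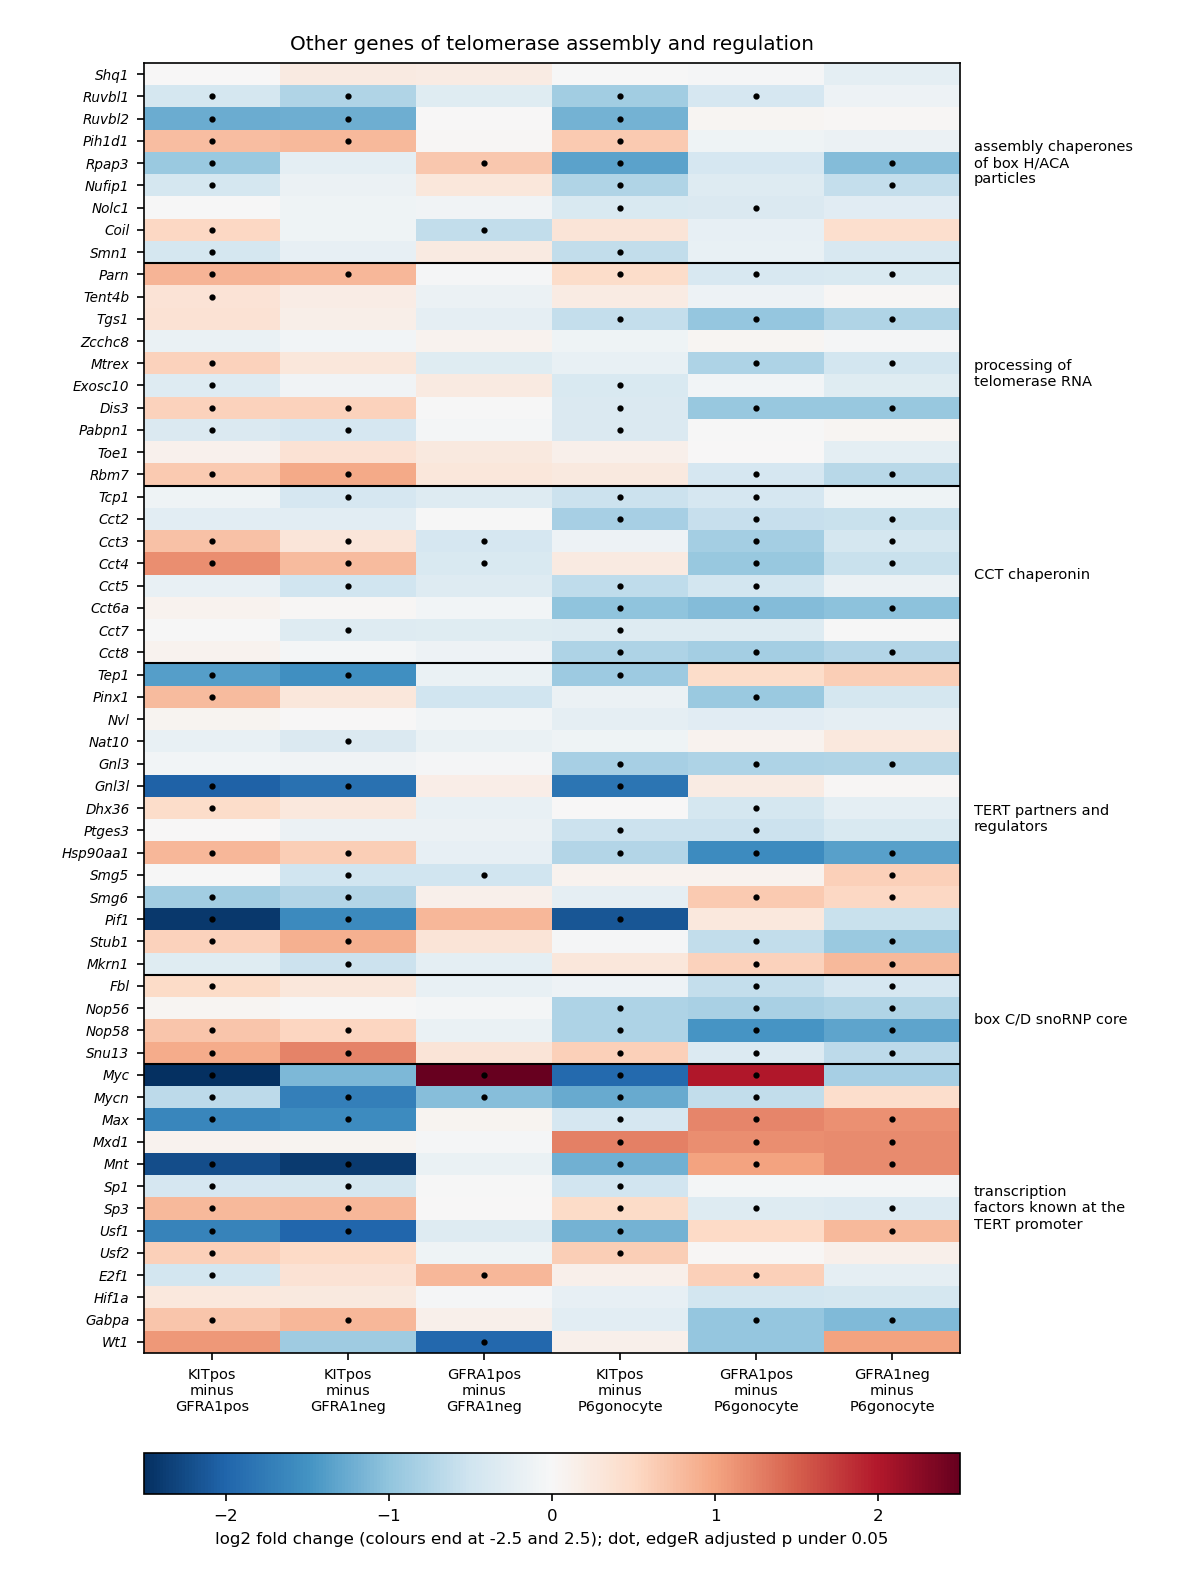
Log2 fold change (colour) of 58 genes in 6 lists (rows) for 6 comparisons (columns), the first-named group minus the second; dots mark an edgeR adjusted p under 0.05. Ruvbl1 and Ruvbl2, Max, Mnt and Usf1 are blue in the columns of KITpos, and the CCT and box C/D genes are mostly blue in the columns of GFRA1pos and GFRA1neg against P6gonocyte.

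For each member, the genes with the most similar profile were ranked by the root-mean-square difference of log2(CPM + 1), each gene centred on its own mean, over the 17 libraries and 15413 genes. For Gar1 these were Psme3 (0.146), Rsu1 (0.152) and Trim25 (0.160), and for Nop10 Srp9 (0.122), Ndufs8 (0.123) and Rpl12 (0.124). Nhp2 was most like Rpl6 (0.158), Arpc1a (0.173) and Rack1 (0.173), and Naf1 was most like Pms2 (0.153), Taf4b (0.169) and Prepl (0.174). Dkc1 had Pnn (0.301), Htatsf1 (0.322) and Dazl (0.345) nearest, and Wrap53 had Wdr46 (0.212), Nme4 (0.217) and Homer2 (0.220). Tert had Uchl1os (0.245), Mon1b (0.287) and Psmd9 (0.292). Members were left out of this ranking by its rule. The distance between Gar1 and Nop10 was 0.976, larger than that from Gar1 to 82.8% of the genes ranked and than that from Nop10 to 74.3% of them. Nhp2 lay 0.390 from Wrap53 and 0.396 from Naf1, at ranks of 1838 and 2014 among the 15413 genes.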

How the data were processed

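Per the labels' protocols, amplification of the RNA used NuGEN Ovation V2, and TruSeq V2 libraries were read paired-end on an Illumina HiSeq. The authors deposited raw whole-number counts per Entrez gene. The submitters' processing notes list, with no roles, the build mm9, the aligners Bowtie, Bowtie2 2.0.0-6 and TopHat2 2.0.4, the trimmer Trim Galore, and the packages DESeq and DESeq2. How reads were assigned to genes (program, annotation, strand) is not given in the sources. The column taken as GFRA1pos replicate 1 is spelled GFP in place of GFR, and was read as a slip.

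Symbols matched 23930 of 24013 rows. edgeR 4.0.16 in R 4.3.3 fitted 1 mean per group to all 17 libraries (TMM, filterByExpr by group, quasi-likelihood F-test), with Benjamini-Hochberg adjustment over 15451 genes and a threshold of 0.05. The common biological coefficient of variation was 0.30. Replicates differed by more than counting error (chi-square per degree of freedom 3.89 to 46.5 over 28 pairs). For a test on simulated data, 200 genes were set to change in each comparison. Of those given a 2-fold change, edgeR called 44.6% of 65 in KITpos against GFRA1pos (15187 genes run). It called 39.4% of 66 in GFRA1pos against GFRA1neg (15238 genes run). In the real libraries, 48.6% and 14.1% of all genes were called in these comparisons, many more than 200. Because the Benjamini-Hochberg cutoff depends on the share of genes that differ, these rates may understate the sensitivity in the real comparisons.

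Members, lists and markers were chosen with earlier results of these data known. Named genes were all members, the sort genes, up to 4 genes per list with the smallest adjusted p and the 3 genes nearest in profile to each member. Alternatives were RLE and upper-quartile scaling, other count filters, DESeq2 1.42.0, limma 3.58.1 voom with and without sample quality weights, no 2 most abundant rows, only the 2 groups compared, a block for the replicate number, and fits that each omit 1 library. Fits without the 4 spermatid-high libraries, and running alternatives for the lists and Terc, were chosen after seeing the data.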

Additional observations from a re-analysis of the deposited data

Results flagged for a closer look

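Among 52 sets of 4 or 5 libraries (a gene or a ratio in a group) examined for a library far from the others of its group, 4 held such a library, and chance alone marks about 1 set in 20. Dkc1 in KITpos replicate 5 was at 68.9 CPM, above 46.5 to 50.0 CPM in the other KITpos libraries, a gap of 0.842 of the group's range. Gar1 in GFRA1pos replicate 3 was at 93.8 CPM, above 68.0 to 72.1 CPM in the other GFRA1pos libraries, a gap of 0.841 of the range. P6gonocyte replicate 2 was low in 2 sort genes, with Pou5f1 at 5.52 CPM (a gap of 0.844 of the range) and Gfra1 at 118 CPM (a gap of 0.85).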

How the results depend on the processing

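Every fit called Nop10 in KITpos against all 3 other groups and in GFRA1neg against P6gonocyte, Gar1 in KITpos against all 3, Dkc1 in KITpos against GFRA1pos and in all 3 adult groups against P6gonocyte, and Nhp2 in KITpos against GFRA1pos and in GFRA1pos against P6gonocyte, each in the same direction. The number of members called in GFRA1pos minus GFRA1neg, 2 as reported, was 0 with no count filter, 1 with only the 2 groups and 1 without the 4 libraries highest in spermatid transcripts, and 0 to 2 when a library was left out, and it was 3 with DESeq2. In that comparison edgeR called 14.1% of all genes as reported and 9.25% with no count filter, and the cause of the loss was not tested.

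Differences in Tert near 0 changed sign between fits, none past the threshold. GFRA1pos minus P6gonocyte was -0.10 with limma voom, -0.067 with sample quality weights and -0.38 to 0.22 with a library left out. KITpos minus GFRA1pos was -0.031 without the 2 most abundant rows, -0.42 without the spermatid-high libraries and -0.15 to 0.44 with a library left out. KITpos minus P6gonocyte was -0.0221, -0.063 and -0.073 to 0.19 in the same settings. GFRA1neg minus P6gonocyte passed with quality weights (0.70, adjusted p = 0.018). GFRA1pos minus GFRA1neg was -1.02 to -0.43 with a library left out, passing without GFRA1pos replicate 1 only. Over all 19 alternative fits it reached -0.28, with adjusted p up to 0.71.

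Differences that never passed also changed sign in other members. With quality weights, Nhp2 in KITpos minus P6gonocyte was 0.054, and Wrap53 was 0.091 in GFRA1pos and 0.078 in GFRA1neg against P6gonocyte. Wrap53 in KITpos minus P6gonocyte was -0.0588 without the 2 most abundant rows. Without the spermatid-high libraries, Naf1 in GFRA1pos minus GFRA1neg was 0.043, Wrap53 in that comparison was -0.0070 and Wrap53 in KITpos minus P6gonocyte was -0.093. With a library left out, Naf1 in GFRA1neg minus P6gonocyte was -0.12 to 0.064, Nhp2 in KITpos minus P6gonocyte was -0.16 to 0.081, and Wrap53 was -0.034 to 0.26 in KITpos minus GFRA1pos, -0.027 to 0.27 in KITpos minus GFRA1neg, -0.081 to 0.10 in GFRA1pos minus GFRA1neg, -0.15 to 0.20 in KITpos, -0.29 to 0.055 in GFRA1pos and -0.29 to 0.048 in GFRA1neg against P6gonocyte.

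Deviations of libraries with the same replicate number correlated from -0.42 to 0.49, and no comparison had every pair over 0.1. In GFRA1pos minus GFRA1neg the pairs were at 0.44, 0.49, 0.29 and 0.065, and whether a number marks a shared origin is not in the labels. With the replicate number as a block, Tert in GFRA1pos minus P6gonocyte was -0.073 and Wrap53 in KITpos minus P6gonocyte was -0.00162, and the number of members called in GFRA1pos minus GFRA1neg was 2, as without it. The block ended the calls of Naf1 in KITpos against GFRA1pos (adjusted p = 0.055) and GFRA1neg (adjusted p = 0.063) and of Terc in KITpos against GFRA1pos (adjusted p = 0.099), and in that last comparison the assembly list had 3 called genes in place of 7. In GFRA1pos minus GFRA1neg 5 of 8 samples correlated best with their own number, and in KITpos minus P6gonocyte 4 of 8 did. The other comparisons had 0 or 2 of 8. Such counts are at most a hint from the data and not from the design. Low counts of Tert (27 to 164) and Terc (11 to 55) limit what these libraries can resolve.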
